A study of Homo sapiens with 21 samples.

Results

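In a Tri-C experiment, a read that holds the captured viewpoint and further restriction fragments of the same chromosome records a set of DNA segments that met in 1 nucleus. Described here are the fragment pairs that flank the viewpoint, with 1 fragment on its left and 1 on its right, each at 10 kb to 1 Mb from it. The viewpoint itself is absent from the lists, and it was placed in the middle of the gap of 1 kb or more between listed fragments whose 2 touching fragments had the highest summed counts. Over 51 loci and 7 libraries, 1421821 of 16038041 listed pairs (8.87%) lay on opposite sides in this way, and they carried 1741477 of 27265180 counts (6.39%). Of the 6655877 pairs with both fragments in the distance range, the other 5234056 lay on 1 side.

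All libraries came from BLaER1, a cell line from a human B cell leukaemia with an inducible form of C/EBPα. When 17β-estradiol switches this factor on in the presence of IL-3 and CSF-1, the cells convert to induced macrophages (iMacs). Enhancer viewpoints were captured at 0 h (no conversion factors), 24 h and 96 h of conversion and, in the BLaER subclone CTCF-AID treated with auxin, at 96 h. Viewpoints at CTCF-binding sites (CBSs) near domain boundaries were captured at 0, 24 and 96 h. CTCF-AID carries an auxin-inducible degron on CTCF, and per the study's methods depletion began together with the conversion. The depleted library differs from the 96 h library of parental cells in both the subclone and the treatment, so the effects of the 2 cannot be told apart. Each condition had 3 biological replicates, which the authors merged before deposit, so each of the 7 libraries is 1 pooled file per locus and no difference below has a replicate check. The tests compare libraries rather than conditions, pairs from the same read are not independent, and all intervals cover counting error only. Following the study's gene lists, 36 loci were taken as iMac loci and 15 as B cell loci.

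Enhancers are stretches of DNA that raise the transcription of genes, often from many kilobases away, and they do so in contact with a promoter. CTCF binds DNA at motifs that point in 1 direction or the other along the chromosome. It halts the cohesin complex as this complex reels in chromatin loops, and domain boundaries often form where CTCF sits. A pair of fragments on both sides of a viewpoint shows that chromatin from both directions lay at the viewpoint at once. A pair on 1 side also arises when a single neighbouring stretch of chromatin is cut into several fragments.

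Every listed fragment within 1 Mb of a viewpoint (2441332 checked) ended at the NlaIII recognition site CATG in the hg38 reference. The sequences below belong to opposite-side pairs that were listed in every library of their viewpoint, and they are shown because their ends are near copies of each other. At CCR1, a chemokine receptor locus on chromosome 3, the left fragment (chr3:46053714-46053838, plus strand, intron of XCR1) and the right fragment (chr3:46427214-46427338, printed as its minus strand, between genes with LTF the nearest) are both 125 bases long and share an unbroken run of 95 bases, given in capitals. At ITGAX, an integrin locus on chromosome 16, a stretch between genes nearest to TRIM72 (chr16:31236684-31236834, plus strand) and an intron of ITGAX (chr16:31367195-31367345, printed as its minus strand) lie in fragments of 385 bases that share a run of 131 bases, of which the capitals mark the first 120.
CCR1 left: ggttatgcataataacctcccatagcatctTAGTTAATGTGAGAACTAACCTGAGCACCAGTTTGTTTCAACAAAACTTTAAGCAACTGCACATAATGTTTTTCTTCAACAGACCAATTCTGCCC
CCR1 right: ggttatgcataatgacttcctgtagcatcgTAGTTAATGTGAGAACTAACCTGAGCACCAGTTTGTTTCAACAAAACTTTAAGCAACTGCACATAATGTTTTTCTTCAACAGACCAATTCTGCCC
ITGAX left: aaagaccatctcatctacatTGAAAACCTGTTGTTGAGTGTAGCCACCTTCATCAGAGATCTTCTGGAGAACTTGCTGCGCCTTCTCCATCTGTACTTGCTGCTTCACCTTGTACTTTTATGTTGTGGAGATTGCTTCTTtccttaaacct
ITGAX right: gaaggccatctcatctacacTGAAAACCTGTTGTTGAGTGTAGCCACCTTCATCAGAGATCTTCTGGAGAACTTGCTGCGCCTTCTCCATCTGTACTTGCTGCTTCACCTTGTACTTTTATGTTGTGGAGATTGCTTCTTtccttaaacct

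Opposite-side pairs were first expressed as a share of distant counts, that is, of all counts with both fragments 10 kb to 1 Mb from the viewpoint. At enhancers, the median over the 51 loci was 13.4% at 0 h, 14.3% at 24 h, 14.3% at 96 h and 9.08% after CTCF depletion. At CBSs it was 12.2% at 0 h, 12.9% at 24 h and 11.5% at 96 h. Single enhancers ranged from 8.69% to 18.6% at 0 h and single CBSs from 6.97% to 18.3%, so loci of 1 library differed more from each other than the medians of the 6 libraries of parental cells did. The depleted library stood apart from the other 6. The loci with most opposite-side counts over all libraries were TRPS1, a zinc finger repressor (63382 counts), and EBF1, a factor that sets B cell identity (60437). At the TRPS1 enhancer the share was 18.6% at 0 h, 19.3% at 24 h, 21.7% at 96 h and 13.6% after CTCF depletion, and at its CBS 9.37%, 9.79% and 10.4%. At the EBF1 enhancer it was 18.4%, 17.9%, 17.4% and 10.96%, and at its CBS 14.6%, 16.6% and 15.9%. TRPS1 and EBF1 both had an enhancer above the median of its library and the lowest of their 4 enhancer values in the depleted library. The CCR1 enhancer, described below, had its lowest value at 96 h instead.

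Most distant counts come from pairs whose 2 fragments lie close together, and such pairs can hardly flank the viewpoint. Same-side pairs under 20 kb apart took a median of 66.4%, 66.3% and 65.7% of distant counts at enhancers at 0, 24 and 96 h, and 78.3% in the CTCF-depleted library. Pairs under 1 kb apart took 54.2%, 51.4% and 51.8%, and 69.7% in the depleted library, and directly neighbouring fragments took 43.4%, 41.0% and 41.9%, and 55.5%. The depleted library was thus richer in very short pairs than the other enhancer libraries, and a pair seen more than once was also more common there, since the median share of opposite-side pairs seen once was 69.0% against 84.0% to 84.5%. Whether the digestion, ligation or duplication of that library played a part was not tested.

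A second denominator, the separated counts, therefore left out same-side pairs under 20 kb apart, the shortest distance that an opposite-side pair can have. This choice was made after the data had been seen. Of separated counts, opposite-side pairs made up a median of 40.2% at 0 h, 40.4% at 24 h, 41.4% at 96 h and 40.7% after CTCF depletion at enhancers. At CBSs they made up 34.5%, 33.8% and 32.7%. On this scale the depleted library lay within the range of the other enhancer libraries, and CBSs lay below enhancers at each time.

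**Figure D1:**
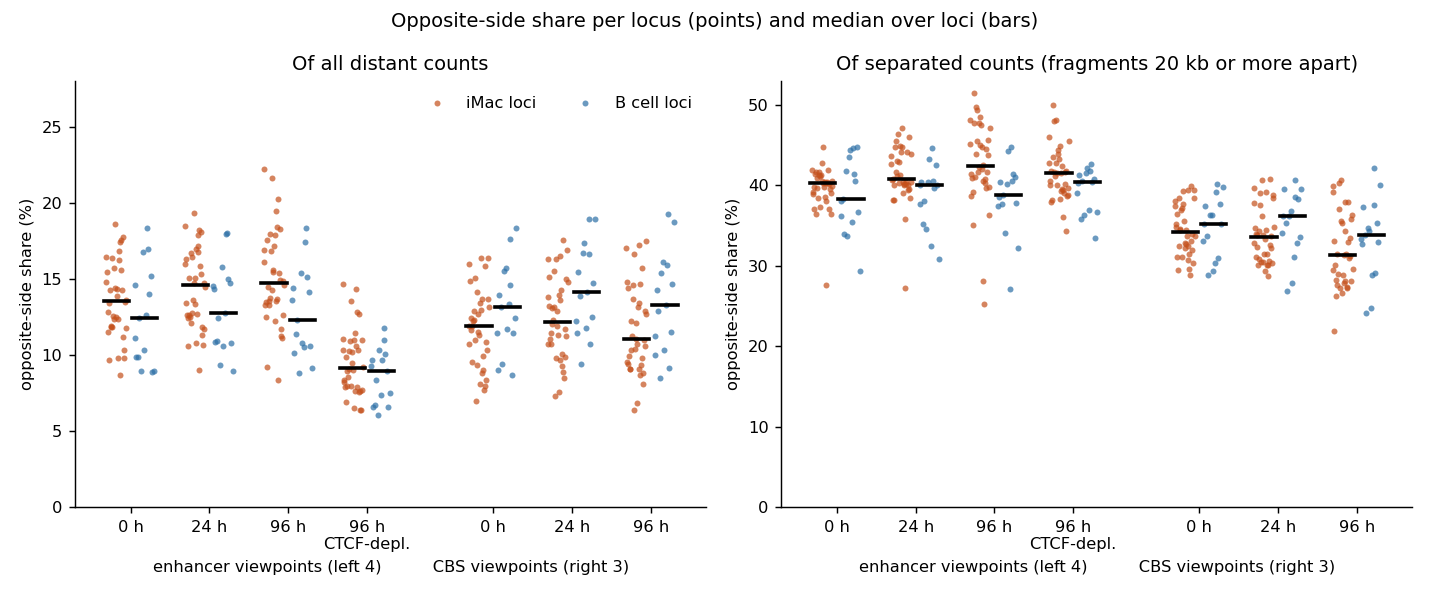
Opposite-side share per locus (points, in %) and its median over loci (bars) in the 4 enhancer and 3 CBS libraries, with distant counts as the denominator in one panel and separated counts (same-side pairs at least 20 kb apart) in the other. With distant counts the CTCF-depleted library has the lowest median (9.08%), and with separated counts its median of 40.7% lies among those of the other enhancer libraries.

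Enhancers and CBSs of the same 51 loci differed in how evenly their contacts fell on both sides. By separated counts, the enhancer had the higher opposite-side share in 46 loci at 0 h, 44 at 24 h and 44 at 96 h. By distant counts, it did so in 27, 25 and 34 loci. The side with fewer fragment ends held a median of 43.2% of the ends of separated pairs at enhancers and 33.3% at CBSs at 0 h, and 41.5% and 30.7% at 96 h, and the enhancer was the more even of the 2 in 44, 47 and 44 loci at 0, 24 and 96 h. Since a lopsided viewpoint must have few opposite-side pairs, the share was divided by the one that would follow if the 2 ends of a pair fell on the sides independently. This ratio had a median of 0.817 at enhancers and 0.789 at CBSs at 0 h, and of 0.851 and 0.791 at 96 h. It stayed below 1 in all 51 loci at 0 h at enhancers (highest 0.939), which is to say that the 2 ends shared a side more often than an independent draw. Such a draw takes no account of the distance between the fragments, so a ratio below 1 is no result in itself. At 96 h the ratio reached 1.08 at CD14 and 1.05 at SRGN.

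The share depended on how far apart the 2 fragments were, in part by definition. With each arm at least 10 kb, a pair 20 to 50 kb apart can flank the viewpoint only close to it. A same-side pair of that distance can lie anywhere in the range. A climb with distance is therefore no result in itself, and viewpoints and libraries are compared within bins. For enhancers at 0 h, the median opposite-side share was 12.9% for pairs 20 to 50 kb apart, 27.8% at 50 to 100 kb, 39.6% at 100 to 300 kb and 53.1% at 300 to 1000 kb. For CBSs at 0 h, it was 7.14%, 14.5%, 29.7% and 51.4% in the same bins. Over all loci at 0 h, CBSs thus lay below enhancers for pairs up to 300 kb and close to them for the widest pairs. In that widest bin at 0 h, CBSs were higher in B cell loci (59.1% against 53.3%) and lower in iMac loci (50.9% against 52.3%). In iMac loci, the 100 to 300 kb bin at enhancers moved from 38.3% at 0 h to 42.3% at 24 h and 47.3% at 96 h, and it was 39.8% in the depleted library. It was higher at 96 h than at 0 h in 28 of 36 iMac loci and lower in the depleted library than at 96 h in 27 of 36. In B cell loci, the same bin held 43.1%, 38.3%, 39.1% and 36.6%, and 10 of 15 loci were lower at 96 h than at 0 h.

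**Figure D2:**
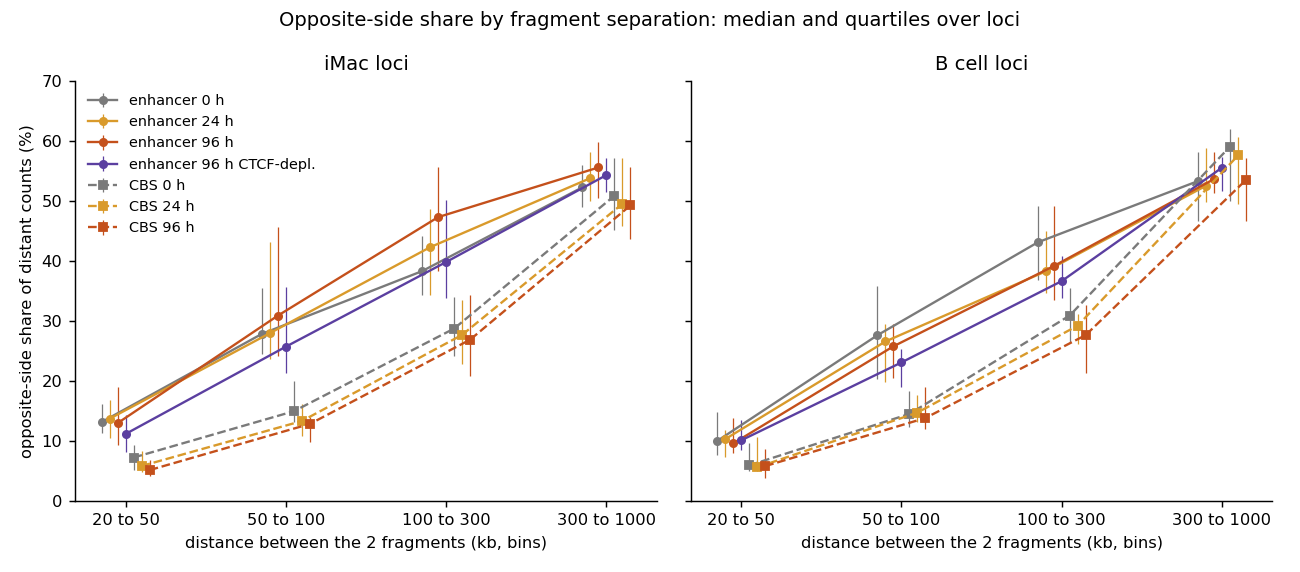
Opposite-side share (in %, median and quartiles over loci) against the distance between the 2 fragments in 4 bins (kb), for enhancer and CBS viewpoints in each library, with iMac and B cell loci in separate panels. The share climbs with distance in every library, from 12.9% at 20 to 50 kb to 53.1% at 300 to 1000 kb for enhancers of all loci at 0 h, and the CBS lines run below the enhancer lines up to 300 kb. The limit of 10 kb on each arm fixes part of this climb.

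For each locus, opposite-side counts were compared with same-side counts between 2 libraries by a two-sided Fisher's exact test, with Benjamini-Hochberg adjustment over the 51 loci. A locus rose or fell where the adjusted p was under 0.05 and the log2 odds ratio was at least 0.32 either way. At the depth of these files small differences pass such a test, hence the minimum size. The 5 comparisons at enhancers and CBSs share their 0 h or 96 h libraries. Changes are given as log2 odds ratios with 95% intervals. Among the loci named here, the enhancer of CD14 and the CBSs of CD14, CD93, EPS8, GAS7, RBM47 and TRPS1 had a viewpoint that the rule first put far from the captured region in some or all libraries, and that was placed again.

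Between 0 h and 24 h, few enhancers moved. By distant counts 1 locus rose (1.96% of those tested) and 0 fell (0%), and by separated counts 2 rose (3.92%) and 0 fell (0%). The distant riser was IRAG2, a B cell locus that encodes a membrane protein of the endoplasmic reticulum, whose share was 11.1% at 0 h and 14.3% at 24 h (log2 odds ratio 0.42, 0.35 to 0.49). The separated risers were SRGN, which encodes the granule proteoglycan serglycin, at 39.7% and 45.5% (0.34, 0.26 to 0.43), and IRF8, a transcription factor of monocytes and dendritic cells, at 39.5% and 46.0% (0.38, 0.29 to 0.47). The log2 odds ratio of distant counts was above 0 in 33 of 36 iMac loci (median 0.09) and in 9 of 15 B cell loci (median 0.04), against 42 of all 51 (median 0.08), but nearly all of these differences were below the minimum odds ratio.

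Between 0 h and 96 h, 8 enhancers rose (15.7%) and 1 fell (1.96%) by distant counts. Of the risers 7 were iMac loci and 1, IRAG2, was a B cell locus. The log2 odds ratio was above 0 in 31 of 36 iMac loci (median 0.16) and in 8 of 15 B cell loci (median 0.03), against 39 of all 51 loci (median 0.13). RBM47, an RNA-binding protein, rose most. Its share was 16.4% at 0 h, 18.5% at 24 h, 22.2% at 96 h and 14.6% after depletion (96 h against 0 h, 0.54, 0.48 to 0.60). GAS7, a membrane-associated cytoskeletal protein, was at 14.4%, 17.0%, 17.9% and 11.005% (0.38, 0.32 to 0.43). NFKBIZ, an IκB protein that works in the nucleus on inflammatory genes, was at 14.3%, 15.1%, 17.5% and 9.86% (0.36, 0.30 to 0.42). In these 3 loci the 96 h library was the highest of the 4. KDM7A, a histone demethylase, CD93, a surface receptor, MXD1, a partner of MAX, and SRGN also rose, with log2 odds ratios of 0.34 to 0.36. All 13 myeloid transcription regulators had a log2 odds ratio above 0 (3 rose, median 0.25), as did 10 of 13 surface and secreted proteins (2 rose, 1 fell, median 0.12). In the mixed list of signalling and other myeloid loci, 8 of 10 were above 0 (2 rose, median 0.16), and the 2 risers were RBM47 and GAS7. These lists were chosen for this report.

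By separated counts, 9 enhancers rose (17.6%) and 2 fell (3.92%) between 0 h and 96 h, and all 9 risers were iMac loci. SRGN moved from 39.7% to 45.5% and 51.5% at 0, 24 and 96 h (0.69, 0.60 to 0.78) and was at 50.02% in the depleted library. CD14, the co-receptor for lipopolysaccharide on monocytes, was at 38.4%, 43.1%, 49.8% and 47.9% (0.67, 0.58 to 0.76). For both, the 24 h value lay between the other 2 and the exact 95% intervals of the 3 times did not overlap. KDM7A was at 40.5%, 44.1%, 48.5% and 44.3% (0.47, 0.38 to 0.56), and LMO2, a bridging protein of haematopoietic transcription factor complexes, at 41.7%, 46.3%, 49.3% and 48.1% (0.44, 0.35 to 0.54). MPEG1, a pore-forming protein of phagocytes, was at 40.5%, 43.9%, 47.2% and 45.5% (0.39, 0.31 to 0.48). The endogenous CEBPA locus, distinct from the inducible form that drives the conversion, was at 41.9%, 43.7%, 48.2% and 45.9% (0.36, 0.30 to 0.43). IRF8, NFKBIZ and RBM47 rose with log2 odds ratios of 0.35 to 0.36. Over iMac loci the median was 0.18 and over B cell loci 0.01, against 0.13 for all 51. By list, the median was 0.07 in myeloid transcription regulators (11 of 13 above 0) and 0.27 in surface and secreted proteins (11 of 13). In signalling and other myeloid loci it was 0.16 (8 of 10). The order of the lists thus differed from that by distant counts.

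CCR1 and IL7R went the other way. CCR1 was the 1 locus that fell by distant counts, with 17.4% at 0 h, 16.8% at 24 h and 13.7% at 96 h (-0.41, -0.46 to -0.37), and by separated counts it was at 38.0%, 35.8% and 28.1% (-0.65, -0.70 to -0.60). IL7R, the receptor for interleukin 7 in B cell precursors, fell by separated counts, with 35.5%, 32.5% and 27.1% (-0.57, -0.63 to -0.50). In both loci the contacts were more lopsided at 96 h than at 0 h. At CCR1 the side with fewer ends, which is away from the gene, held 47.8% of separated ends at 0 h, 36.8% at 24 h and 23.5% at 96 h. At IL7R it held 31.4%, 31.0% and 21.9%, and so hardly moved between 0 h and 24 h, while the share already fell.

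**Figure D3:**
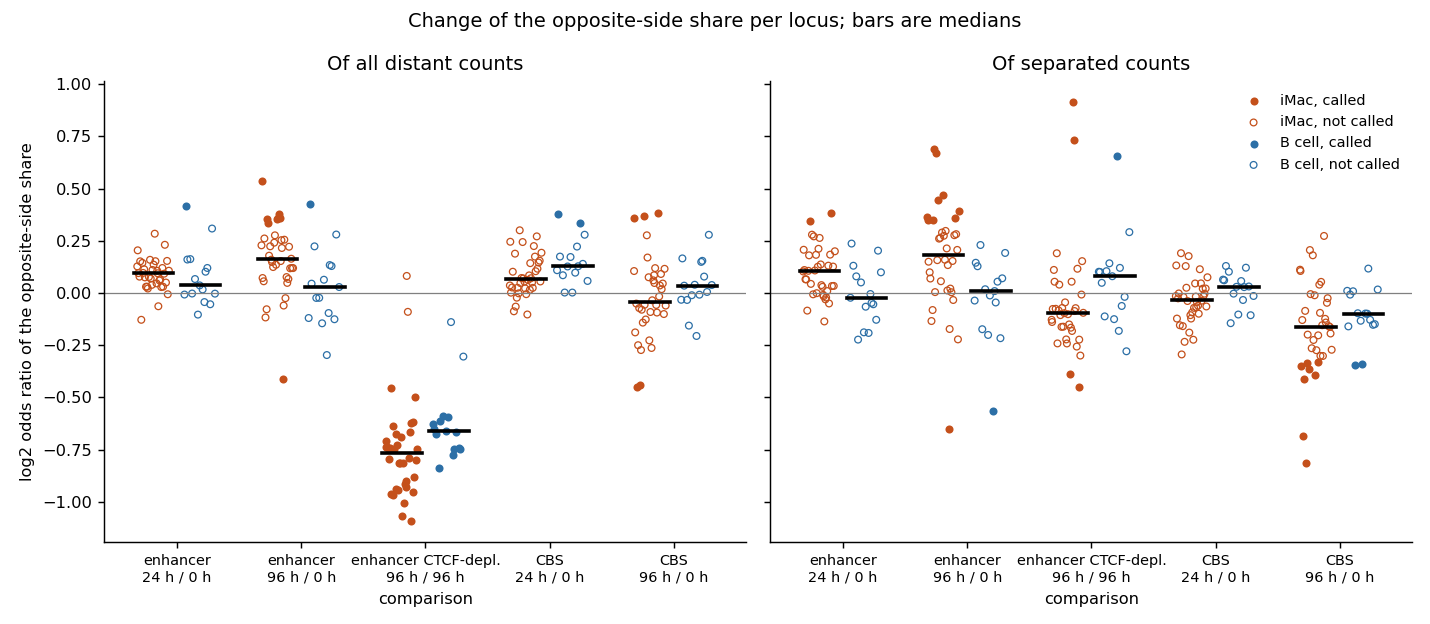
Log2 odds ratio of the opposite-side share per locus in the 5 comparisons, with distant counts in one panel and separated counts in the other; filled points are called loci, open points are not called, and bars are medians. With distant counts nearly all points of the comparison of the depleted library with 96 h lie below 0, and with separated counts they scatter around 0 with CCR1 highest at 0.91.

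Within opposite-side pairs, the shares of counts with an end near set elements also differed between the libraries. No windows at like distances from the viewpoint were counted beside them, and the arms changed in length too, as given below. Whether these changes are separate was not tested. The share of opposite-side counts with an end in the 12 kb around the promoter of the locus had a median over iMac loci of 4.23% at 0 h, 5.77% at 24 h, 7.28% at 96 h and 5.30% after CTCF depletion. It was higher at 24 h than at 0 h in 28 of 36 iMac loci and higher at 96 h in 35 of 36. Over B cell loci it was 8.86%, 4.77%, 3.78% and 4.55%, and it was lower than at 0 h in 15 of 15 loci at 24 h and again at 96 h. The 1 exception among iMac loci at 96 h was GAS7, at 3.30% and 2.66%. The direction thus split almost fully between the 2 classes, although these are descriptions of 1 library each. It was not confined to opposite-side pairs. Of separated counts with an end in the promoter window, these pairs made up a median of 45.1% at 0 h and 48.6% at 96 h in iMac loci (22 of 36 higher). In B cell loci they made up 44.9% and 42.9% (10 of 15 lower).

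CD14 had the highest promoter share, with 18.7% at 0 h (exact 95% interval 17.5 to 19.97), 28.7% at 24 h (27.1 to 30.2), 39.0% at 96 h (37.2 to 40.7) and 25.9% after CTCF depletion (24.3 to 27.5). Its promoter and CBS windows overlap. SRGN was at 15.0% (13.9 to 16.1), 22.4% (21.1 to 23.9), 28.6% (27.0 to 30.2) and 23.4% (21.7 to 25.1). CCR1, whose opposite-side share fell, was at 4.02% (3.65 to 4.41), 7.60% (7.12 to 8.11), 12.1% (11.4 to 12.8) and 5.32% (4.83 to 5.85). In these 3 loci the order of the libraries of parental cells followed the hours of conversion and the depleted library lay below that of 96 h. LMO2 differed from them, with 8.64%, 16.4%, 17.6% and 23.2% (21.8 to 24.7), the depleted library being highest. The promoters of CD14, SRGN, LMO2 and CCR1 lie 21.4, 26.6, 38.4 and 119 kb from the enhancer viewpoint. Whether the level of the promoter share follows this distance was not tested.

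Among B cell loci, IL7R had a promoter share of 12.98% at 0 h (12.04 to 13.96), 4.797% at 24 h (4.33 to 5.29), 3.43% at 96 h (2.98 to 3.92) and 4.64% after CTCF depletion (4.15 to 5.17). MYB, a transcription factor of haematopoietic progenitors, was at 10.9% (9.91 to 11.97), 4.77% (4.18 to 5.41), 4.06% (3.49 to 4.70) and 5.82% (5.12 to 6.59). EBF1 was at 2.45%, 1.16%, 0.960% and 1.01%. Most of the loss at these 3 enhancers was present at 24 h. At RAG2, a subunit of the recombinase that joins antigen receptor segments, the change was smaller, with 11.7% (10.6 to 12.8), 9.33% (8.38 to 10.4), 8.73% (7.76 to 9.78) and 6.43% (5.51 to 7.46).

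The 12 kb around the CBS viewpoint of the locus served as a boundary window. Over iMac loci, opposite-side counts with an end in it made up a median of 3.66% at 0 h, 4.30% at 24 h, 5.93% at 96 h and 3.43% after CTCF depletion, and 33 of 36 loci were higher at 96 h than at 0 h. Of separated counts with an end in this window, opposite-side pairs made up a median of 44.5% at 0 h and 48.6% at 96 h in iMac loci (25 of 36 higher). In B cell loci they made up 40.4% and 44.9% (6 of 15 higher). Of opposite-side counts, those with an arm that ran beyond the CBS made up 35.1%, 34.4%, 26.5% and 38.8%, and 35 of 36 iMac loci were lower at 96 h. Over B cell loci the boundary window held 3.81%, 5.46%, 5.32% and 1.85%, and the arms beyond it 28.6%, 32.5%, 33.4% and 47.4%, with 12 of 15 loci higher at 96 h than at 0 h. NFKBIZ is an example of an iMac locus, with 25.7%, 19.5%, 12.6% and 22.7% of opposite-side counts beyond the CBS. In 26 loci (19 iMac, 7 B cell) the promoter and the CBS lie on opposite sides of the enhancer, so a pair can hold both. Such pairs were rare, with a median of 0.160%, 0.197%, 0.314% and 0.226% of opposite-side counts in iMac loci, or a median of 7, 9, 23 and 10 counts per locus. They took a larger share at 96 h than at 0 h in 18 of 19 iMac loci. In B cell loci their median share was 0.487% at 0 h, 0.350% at 24 h, 0.2504% at 96 h and 0.114% after CTCF depletion, and it was lower at 96 h than at 0 h in 5 of 7. SRGN had most of them, with 1.63% at 0 h (1.26 to 2.07), 2.83% at 24 h (2.31 to 3.44), 4.36% at 96 h (3.65 to 5.16) and 2.20% after CTCF depletion (1.65 to 2.88).

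**Figure D4:**
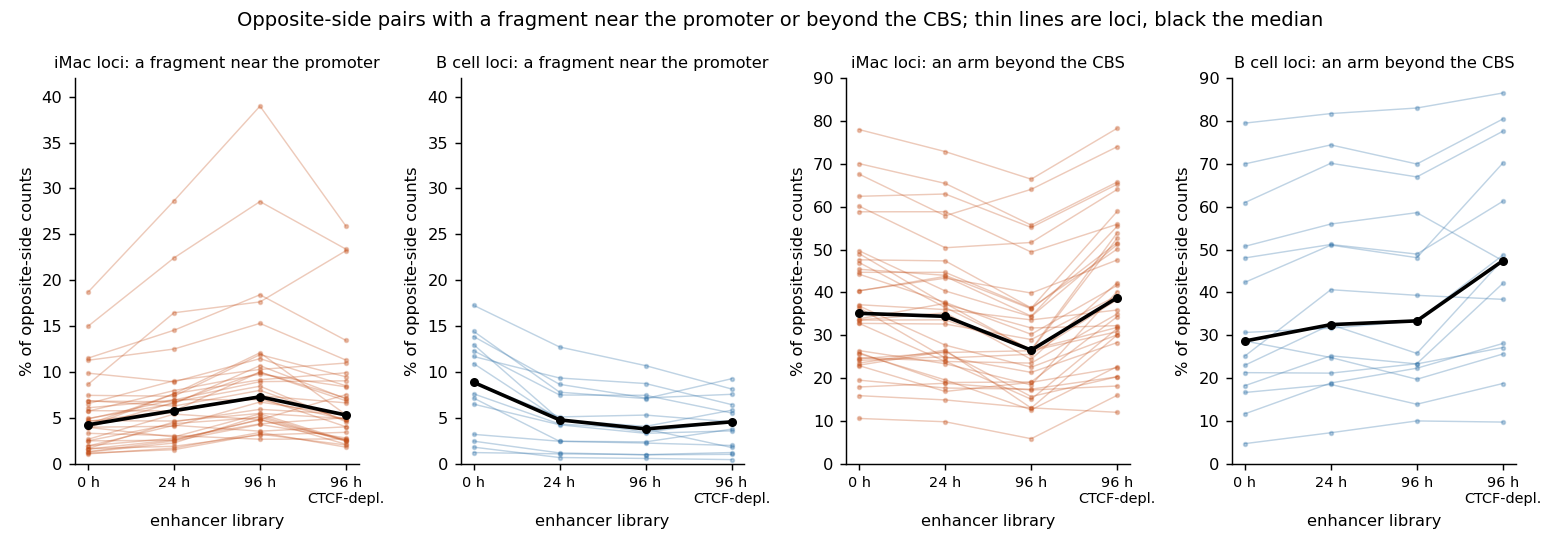
Percentage of opposite-side counts at enhancer viewpoints with an end in the 12 kb around the promoter, and percentage with an arm beyond the CBS, in the 4 enhancer libraries; thin lines are loci and black lines the median, with iMac and B cell loci in separate panels. The promoter median goes from 4.23% to 7.28% between 0 h and 96 h in iMac loci and from 8.86% to 3.78% in B cell loci.

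The arms of the pairs changed in length in the same loci. The median of the per-locus median span, from the left to the right fragment, was 313 kb at 0 h, 287 kb at 24 h, 231 kb at 96 h and 352 kb in the depleted library for iMac loci, and 31 of 36 were shorter at 96 h than at 0 h. For B cell loci it was 296 kb, 327 kb, 327 kb and 418 kb, and 11 of 15 were longer at 96 h. The difference lay in the longer arm, which had a median of 237 kb at 0 h and 173 kb at 96 h in iMac loci. The shorter arm was 41.4 kb and 42.8 kb. At CBSs the spans were wider, with a median over all loci of 402 kb, 431 kb and 416 kb.

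The CCR1 locus shows how these measures go together. Its enhancer lies on chromosome 3 with the CCR1 promoter 119 kb and the CBS 289 kb to the right. As the share of ends on the left went from 47.8% to 23.5%, the promoter window gained opposite-side counts (4.02% to 12.1%) while the arms beyond the CBS lost them, with 26.4% at 0 h (25.6 to 27.3), 23.3% at 24 h (22.6 to 24.1) and 18.4% at 96 h (17.5 to 19.2). In the depleted library 40.2% (39.1 to 41.3) ran beyond the CBS. The window at the CBS itself held 7.05%, 7.23% and 5.98% in parental cells and 2.22% (1.90 to 2.57) in the depleted library. The bin of 25 kb by 25 kb that holds the near-identical fragments printed above had 1.36%, 0.930%, 0.790% and 1.246% of opposite-side counts.

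**Figure D5:**
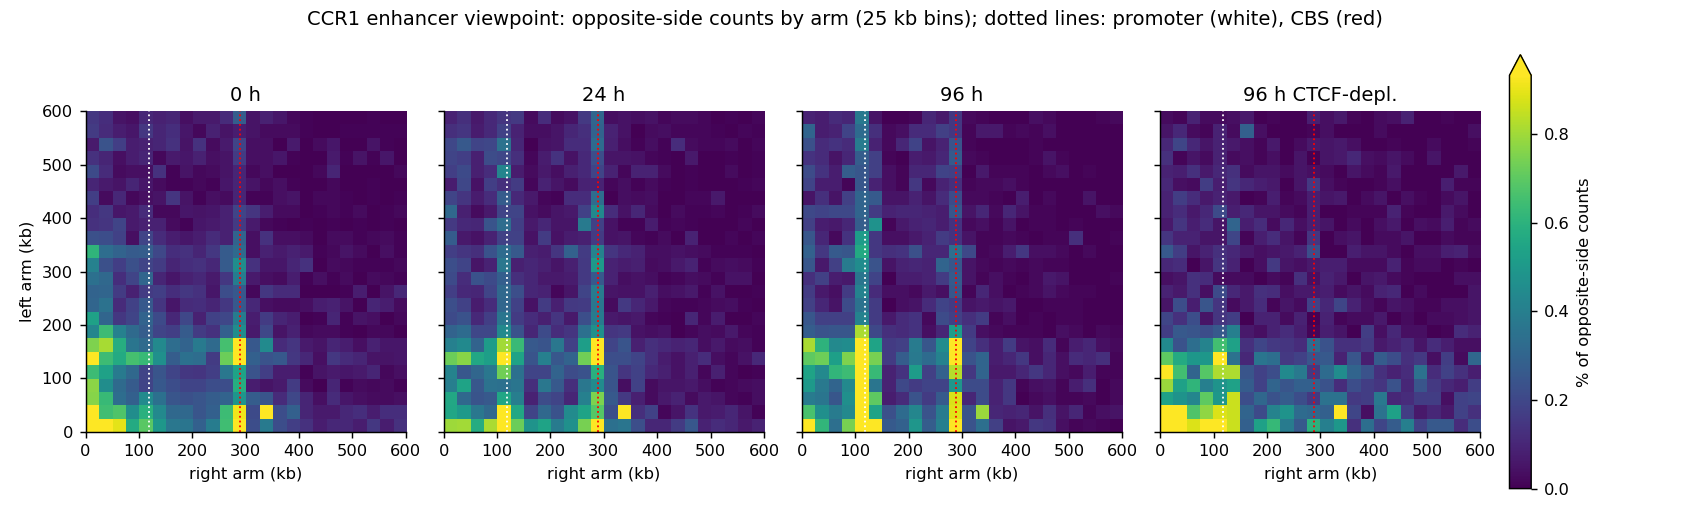
Opposite-side counts at the CCR1 enhancer viewpoint in bins of 25 kb, with the left arm (kb) on one axis and the right arm (kb) on the other, in the 4 enhancer libraries; dotted lines mark the promoter (white) and the CBS (red). The promoter column is densest at 96 h, when 12.1% of opposite-side counts had an end in the promoter window, and the depleted library spreads beyond the CBS line (40.2%).

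In the CTCF-depleted library against that of 96 h, the opposite-side share of distant counts fell in 47 of 51 enhancers (92.2%) and rose in 0 (0%), by Fisher's exact test with the minimum odds ratio. The share was below that of 96 h in 50 of 51 loci. LYN, a kinase of the Src family, went from 14.9% to 7.60% (-1.09, -1.15 to -1.03), CD93 from 17.2% to 9.01% (-1.07, -1.13 to -1.01), SRGN from 14.5% to 7.97% (-0.97, -1.05 to -0.88), NFKBIZ from 17.5% to 9.86% (-0.96, -1.02 to -0.90) and TRIB1, a pseudokinase, from 18.4% to 10.6% (-0.93, -0.98 to -0.89). The median log2 odds ratio was -0.77 in iMac loci (34 of 36 fell) and -0.66 in B cell loci (13 of 15 fell), against -0.74 over all 51. CCR1 (13.7% and 14.4%), DDIT4 (8.37% and 7.90%), IL7R (10.6% and 9.68%) and IGLL5 (9.12% and 7.51%) were not called. This fall went along with the higher share of same-side pairs under 20 kb apart, 78.3% against 65.7%, and it was lost when these pairs were left out.

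By separated counts, 3 enhancers rose (5.88%) and 2 fell (3.92%) in the depleted library against 96 h, with a median log2 odds ratio of -0.10 in iMac loci, 0.08 in B cell loci and -0.08 over all 51. CCR1 rose from 28.1% to 42.4% (0.91, 0.86 to 0.97), DDIT4, an inhibitor of mTOR signalling, from 25.3% to 36.0% (0.73, 0.63 to 0.83), and IL7R from 27.1% to 36.9% (0.65, 0.59 to 0.72). These had the 3 lowest separated shares of the 51 enhancers at 96 h, and their sides were more even in the depleted library, where the side with fewer ends held 42.1% at CCR1, 37.6% at DDIT4 and 36.4% at IL7R, after 23.5%, 21.4% and 21.9% at 96 h. TNFRSF1B, a receptor for tumour necrosis factor, fell from 41.6% to 34.3% (-0.45, -0.58 to -0.32) and MXD1 from 44.8% to 38.2% (-0.39, -0.49 to -0.29).

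The shares near these elements also differed in the depleted library, again without windows at like distances beside them. The boundary window held fewer opposite-side counts than at 96 h in 33 of the 36 iMac loci and in 12 of the 15 B cell loci, and arms beyond the CBS held more in 35 and 12 of them. RAG2 changed most clearly at its CBS, with 18.1% at 0 h (16.8 to 19.4), 18.5% at 24 h (17.2 to 19.8), 17.98% at 96 h (16.6 to 19.4) and 3.93% after CTCF depletion (3.21 to 4.77). Arms beyond its CBS made up 42.4%, 51.1%, 48.1% and 70.2% (68.4 to 72.0). The promoter window held less in 27 of 36 iMac loci, and in 7 of 15 B cell loci. The span of the pairs was longer than at 96 h in 33 iMac loci and 14 B cell loci. The percentages and spans in this comparison are taken within opposite-side pairs, of which a median of 69.0% were seen once in the depleted library, and whether this moved them was not tested.

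At CBS viewpoints, 2 loci rose (3.92%) and 0 fell (0%) by distant counts between 0 h and 24 h. They were the B cell loci DNTT, the polymerase that adds untemplated bases in V(D)J joining, at 8.70% and 10.7% (0.33, 0.24 to 0.43), and IRAG2, at 9.04% and 11.4% (0.38, 0.26 to 0.49). By separated counts 0 rose (0%) and 0 fell (0%) with the minimum odds ratio, and the log2 odds ratio was above 0 in 20 of 51 loci (median -0.01).

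Between 0 h and 96 h, 3 CBSs rose (5.88%) and 2 fell (3.92%) by distant counts. RBM47 was at 11.9% at 0 h, 13.8% at 24 h and 14.8% at 96 h (0.36, 0.27 to 0.45), EPS8, an actin regulator, at 10.97%, 13.2% and 13.7% (0.37, 0.29 to 0.44), and IL10RA, a receptor chain for interleukin 10, at 7.69%, 8.87% and 9.81% (0.38, 0.27 to 0.50). KLF4, a transcription factor of monocytes, was at 12.4%, 13.2% and 9.40% (-0.45, -0.52 to -0.38; adjusted p = 6.89e-36 by Fisher's exact test), and NFKBIZ at 11.9%, 11.4% and 9.06% (-0.44, -0.51 to -0.37; adjusted p = 2.04e-31 by the same exact test). Both lost their share between 24 h and 96 h.

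By separated counts 10 CBSs fell (19.6%) and 0 rose (0%) between 0 h and 96 h. Of these, 8 were iMac loci (median over the 36, -0.16) and 2, MYB and BLK, were B cell loci (median over the 15, -0.10), against a median of -0.14 over all 51. NFKBIZ was at 38.5%, 33.8% and 26.2% (-0.81, -0.90 to -0.73), KLF4 at 31.1%, 31.1% and 21.9% (-0.68, -0.76 to -0.61), KDM7A at 32.2%, 30.4% and 26.6% (-0.39, -0.48 to -0.31) and SRGN at 32.4%, 30.1% and 27.5% (-0.34, -0.42 to -0.25). CREG1, CD14, CCL2 and GAS7 also fell, with log2 odds ratios of -0.41 to -0.33. The contacts of the NFKBIZ and KLF4 CBSs became more lopsided, since the side with fewer ends held 39.9%, 31.1% and 21.5% at NFKBIZ and 29.9%, 26.9% and 16.8% at KLF4. NFKBIZ, KDM7A, SRGN and CD14 thus had an enhancer that rose and a CBS that fell by separated counts; the difference between the 2 viewpoints was not tested. The fragment ends of separated pairs at CBSs, same-side pairs included, were mostly on the side of the enhancer, with a median of 67.0%, 68.6% and 71.5% in iMac loci (32 of 36 higher at 96 h than at 0 h) and 63.9%, 66.6% and 68.5% in B cell loci (10 of 15 higher).

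Few fragment pairs were seen again in a second library. Of 824538 distinct opposite-side pairs at enhancers, 99.04% were listed in 1 library and 62 (in 14 loci) in all 4, and of 585717 at CBSs, 99.5% were listed in 1 library and 140 (in 23 loci) in all 3. Pairs listed more often had ends of like sequence more often. A run of at least 20 identical bases between the 2 fragments was present in 0.756% of enhancer pairs listed in 1 library, 1.505% in 2, 16.3% in 3 and 41.9% in 4. At CBSs it was present in 0.686%, 3.11% and 42.9% of pairs listed in 1, 2 and 3 libraries. IGLL1 (49), IGLL5 (36) and CCR1 (18) held most of the CBS pairs listed in all 3, and the first 2 lie in the region of the immunoglobulin lambda locus. The pair at ITGAX printed above had 10, 25, 26 and 9 counts in the enhancer libraries in the same order, and that at CCR1 had 10, 3, 2 and 6 counts from the enhancer and 10, 6 and 9 from the CBS. A pair at MPEG1, from an exon of the gene to a stretch nearest to OR5AN1 with a shared run of 175 bases, had 41, 35, 34 and 31 counts, the highest of all. Whether reads from 1 copy were placed on the other was not tested. Pairs with such a run carried 0.775% to 0.903% of opposite-side counts per library, and 0.901% to 1.29% of same-side counts at least 20 kb apart, so they were a small part of the shares above.

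Finally, the core of the motif that CTCF binds (CCA, 2 free bases, AG, 2 free bases, GGC) was looked for on both strands in the 2 kb around fragment midpoints. It was present around 6.17% to 6.28% of the fragments listed in opposite-side pairs. Among the 102 ends of the most counted pair per locus, 3, 7, 3 and 6 had it in the enhancer libraries (0 h, 24 h, 96 h and depleted) and 5, 15 and 1 in the CBS libraries (0, 24 and 96 h). Of all opposite-side ends by count, 6.79%, 6.93% and 6.76% had it in the CBS libraries at 0, 24 and 96 h, so these hardly differed. Among the most counted pairs, the 24 h CBS library, with 14.7% of its ends, had more than the fragments at large, and the other 6 had between 0.980% and 6.86%. In that library 3 pairs had it at both ends. Where pairs of a locus tied, the one of widest span was taken. The pair at CCR1 (9 counts) is printed with the motif in capitals. It tied with a narrower pair (chr3:46048878-46049070 and chr3:46430115-46430220), also at 9 counts, whose ends share a run of at least 20 bases. Whether CTCF binds the printed stretches was not tested. The left window (chr3:45938929-45938980, intron of FYCO1) lies 177 bases and the right one (chr3:46407152-46407203, intron of CCRL2) 932 bases from the midpoint of its fragment, both on the plus strand of hg38.
CCR1 left motif: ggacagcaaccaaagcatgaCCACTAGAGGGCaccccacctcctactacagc
CCR1 right motif: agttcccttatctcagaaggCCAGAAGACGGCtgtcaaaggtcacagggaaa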

How the data were processed

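Tri-C libraries were made with NlaIII digestion, ligation and capture of the viewpoints. Per the labels and the study's methods, the authors mapped reads to hg38 with CapCruncher, merged the 3 replicates of each condition and deposited, for every locus, counts of the fragment pairs found together in reads with a viewpoint. Of 371 files, 357 were read; the IFNGR2 and TASL viewpoints were left out, as in the study. In 18 files (3 enhancer, 15 CBS, the latter over 9 loci) the rule put the viewpoint far from the captured region, with at most 2.65% of counts within 1 Mb, and it was placed again within 500 kb of the 100 kb bin of most counts. Opposite-side counts per library came to 207023 to 294826, and 652 to 16859 per locus. Shares have exact intervals, and an odds ratio has 0.5 added to each count. Promoters and genes came from GENCODE, and an intron is any part of a gene outside its canonical exons. The members, lists and rules were chosen with earlier results of these data known. Named loci were those named in the study's text, up to 6 called loci of largest change per direction and comparison, and the loci of most counts per list. The scripts were tested on simulated data. Python 3.11.15, NumPy 2.4.6, pandas 2.3.3, SciPy 1.17.1, pysam 0.24.0 and matplotlib 3.10.9 were used.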

Additional observations from a re-analysis of the deposited data

How the results depend on the processing

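No paired analysis was possible because the replicates of each condition are merged in the files, and for the same reason no replicate could be left out. All counts here are of enhancers or CBSs whose opposite-side share of distant counts rose or fell, under 9 planned and 2 added alternatives. The denominator mattered most. Without same-side pairs under 10 kb apart, or under 20 kb apart, 2 and 2 iMac loci fell in the CTCF-depleted library in place of 34, 2 and 2 rose in place of 0, 0 and 0 B cell loci fell in place of 13, and 1 and 1 rose in place of 0, and the B cell median turned from -0.66 to 0.075 and 0.080. In the same 2 settings, B cell risers went from 1 to 0 and 0 for enhancers at 24 h, from 1 to 0 and 0 (with 1 and 1 fallers in place of 0) at 96 h, and from 2 to 0 and 0 for CBSs at 24 h. For CBSs at 96 h, iMac risers went from 3 to 0 and 0, iMac fallers from 2 to 8 and 8, and the B cell median turned from 0.04 to -0.079 and -0.099, with 2 B cell fallers at 20 kb in place of 0. Enhancer iMac risers at 24 h were 2 at 20 kb in place of 0.

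Without a minimum odds ratio, the counts (iMac rose, iMac fell, B cell rose, B cell fell) were 22, 2, 6 and 1 for enhancers at 24 h, and 28, 2, 5 and 5 at 96 h. For CBSs, 15 iMac and 13 B cell loci rose at 24 h, and the counts were 9, 10, 4 and 2 at 96 h. In the depleted library 1 iMac locus rose. With an inner limit of 5 kb, 4 iMac enhancers rose at 96 h, 0 B cell CBSs rose at 24 h, and 1 iMac CBS rose and 1 fell at 96 h. With 50 kb, 2 B cell enhancers rose at 24 h and 2 at 96 h, 2 iMac enhancers fell at 96 h, 4 iMac CBSs rose at 24 h and 4 fell at 96 h. With all counts within 1 Mb as the denominator, 2 B cell enhancers rose at 24 h and 2 at 96 h, 0 iMac enhancers fell at 96 h, and 2 B cell CBSs rose at 96 h. With each pair counted once, 2 B cell enhancers and 1 B cell CBS rose at 24 h. With an outer limit of 500 kb, 1 B cell CBS rose at 24 h. Without the loci whose viewpoint was placed again, 1 iMac CBS rose at 96 h. Counts divided by 3 and a single placement per locus kept all counts within 1.5 times. Except for the denominator, the cause of these differences was not tested.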
